A study of Homo sapiens with 24 samples.

Results

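Newly made RNA was compared between U2OS cells that carried the Ctrl form of the glucocorticoid receptor (GR) and were treated with dexamethasone for 2 h, and the same cells in ethanol. U2OS is a human osteosarcoma line with little GR of its own. The comparison takes the 2 Ctrl libraries at 2 h and the 2 Ctrl libraries at 0 h, which are 4 of the 24 libraries of the study, and covered 23651 genes. In 4sU-seq, cells are given 4-thiouridine, here at 200 µM for the last 1 h, and the RNA that takes it up is purified and sequenced. The values are therefore weighted towards RNA made within that hour. How much unlabelled RNA came along is not given.

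The Ctrl line expressed GR-HaloTag with R470A, a change of arginine to alanine that lowers the affinity of the receptor for DNA and leaves its RNA binding. Dexamethasone, a synthetic glucocorticoid, was given at 100 nM and cells were taken after 1, 2 and 3 h, and the cells in 0.01% ethanol are called 0 h here. The wt line, with unchanged GR, and the SoF line, with K492A, which mainly lowers RNA affinity, were treated in the same way with 2 libraries for each line and time. All transgenes were inserted with the PiggyBac transposon and driven by the CMV promoter. Each line was 1 puromycin-selected pool sorted on its HaloTag dye, so the construct and the cell pool cannot be told apart. All cells were kept in charcoal-stripped serum. The time that the 0 h cells spent in ethanol is not stated, and their medium was changed, so a change of medium and the hormone cannot be separated by time here. The labels do not say whether the 2 libraries of a group came from separate cultures. P-values therefore measure only the spread between libraries of a group, and this spread was estimated over all 12 groups of line and time. The groups differed in it. The SD of the log2 difference between replicates was 0.60 in Ctrl 0 h and 0.44 in Ctrl 2 h. According to the paper, biotinylation and pulldown were carried out on pairs of replicates. If such a pair is the 2 libraries of a group, 0 h and 2 h also differ by pulldown run. The spread within a group would not hold that difference, and it was not tested. Throughout, paired values are replicate 1 and then replicate 2.

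GR is a nuclear receptor that is held in the cytoplasm by chaperones until it binds a glucocorticoid. It then moves to the nucleus, where it binds DNA at glucocorticoid response elements and raises some genes. It also lowers others, among them genes driven by AP-1 and NF-κB, the basis of the anti-inflammatory use of these drugs. Known targets include FKBP5, a chaperone that limits the receptor, and PER1, a repressor of the circadian clock.

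The 4 libraries held 8106036 to 15060777 counted reads, the lowest total being Ctrl 0 h replicate 2. NR3C1, which encodes GR, was measured at 3202 and 3431 CPM (reads scaled to a common library total) at 0 h and 2234 and 2515 CPM at 2 h (log2 fold change -0.48, adjusted p = 0.157). The values were 5592 and 7658 CPM after 1 h. Reads of the endogenous gene and of the transgene are counted together and the mutation cannot be checked from them. In the wt line NR3C1 stood at 552 and 824 CPM at 0 h. The paper picked sorted fractions so that nuclear GR protein, seen by immunofluorescence, matched between lines after dexamethasone. These RNA values are therefore not a measure of receptor protein. Of 12 mesenchymal and osteosarcoma markers, 10 were measurable, with a summed level of 2676 to 3038 CPM at 0 h and 3696 to 4095 CPM at 2 h. Of these 10 markers 4 rose and 1 fell. Of the blood and immune markers 1 of 8 was measurable, of the endothelial markers 3 of 6 and of the epithelial markers 5 of 9. The measurable members summed to at most 1.06, 7.71 and 37.3 CPM in any of these libraries, and none of them was called.

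The pair of 0 h libraries differed from each other more than the pair at 2 h (median absolute difference of log2 CPM 0.35 against 0.22), and the difference followed the GC content of the transcripts. When 23580 genes were split into 5 bins of equal size by GC, Ctrl 0 h replicate 1 exceeded replicate 2 by a median of 0.39 on the log2 scale in the highest bin and lay below it in the lowest, with a median difference of -0.32. The rising genes described below had a median GC of 57.6%, the falling genes 42.4% and all tested genes 47.7%. Set against Ctrl 0 h replicate 2 alone, the highest GC bin was higher at 2 h by a median of 0.53 and 0.62 in replicates 1 and 2. Set against Ctrl 0 h replicate 1 alone, it was higher by 0.16 and 0.23. With a smooth trend of each library on GC removed, 809 of the 1319 rising and 336 of the 562 falling genes were still called. Without Ctrl 0 h replicate 2, 225 and 111 of them were called, and 210 and 73 were called in each of the 4 fits that left out 1 library. Genes named below were called in all of these settings unless a value is given. The part of GC content in the remaining calls was not tested.

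**Figure D1:**
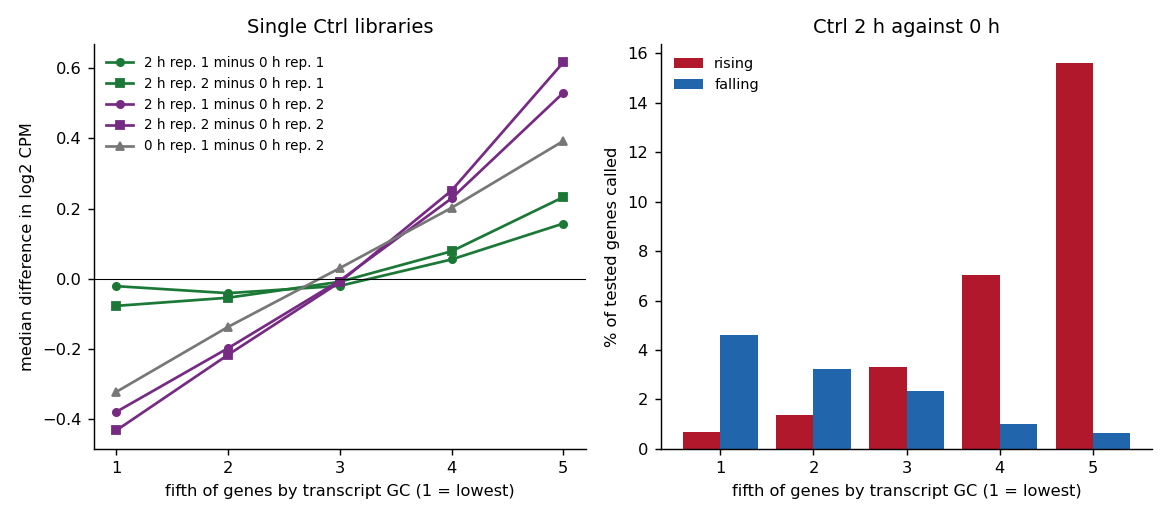
Left, the median difference in log2 CPM between single Ctrl libraries (y axis) in 5 equal bins of genes by transcript GC content (x axis, 1 lowest), for each 2 h library minus each 0 h library and for the 0 h replicates against each other. Right, the percent of tested genes called rising or falling in each bin. The lines against 0 h replicate 2 are steeper than those against 0 h replicate 1, and rising calls make up 15.6% of the highest bin and 0.679% of the lowest.

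After 2 h of dexamethasone 1319 genes rose and 562 fell at an adjusted p under 0.05. That is 5.58% and 2.38% of the tested genes and 7.95% together. Counts for the gene lists below are to be read against these shares, and a list with few calls can lie near them. With upper-quartile scaling in place of TMM the same libraries gave 1040 rising and 853 falling genes, so the balance of the directions depends on the scaling. The changes were mostly moderate. The median log2 fold change was 0.94 among rising genes and -0.87 among falling genes, and 581 and 219 of them changed by at least 1 on that scale. Protein-coding genes made up 91.7% of the rising and 71.9% of the falling genes, against 62.1% of all tested genes. Long noncoding RNAs were 6.37%, 17.4% and 22.4% of the same sets. The genomic span was a median of 16600 bp for rising, 43542 bp for falling and 18500 bp for all tested genes. Every called gene was selected on the 4 libraries, and these shares describe the selection. The 0 h and 2 h values did not overlap in 50.1% of all tested genes and in 100% of the called genes, so a gap between the groups of a called gene adds nothing to its call.

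**Figure D2:**
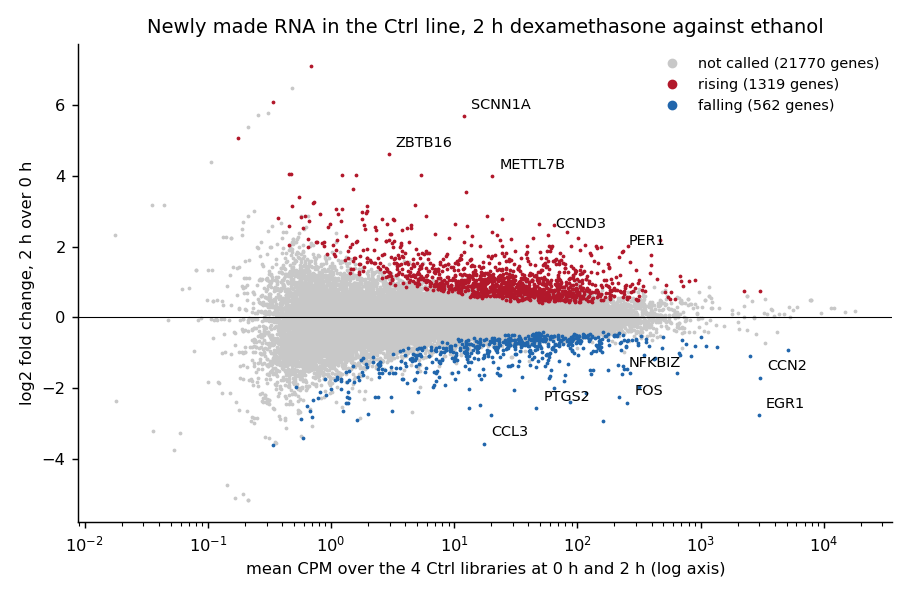
Each point is a tested gene, with its mean CPM over the 4 Ctrl libraries at 0 h and 2 h (x axis, log scale) and its log2 fold change of 2 h over 0 h (y axis). Red and blue points passed an adjusted p under 0.05, and SCNN1A, at 5.69, stands far above other genes of its level.

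SCNN1A (ENSG00000111319, chr12:6346843-6377730, minus strand, hg38), the α subunit of the epithelial sodium channel and a classical corticosteroid target, had the smallest p. It went from 0.4999 and 0.353 CPM at 0 h to 24.4 and 22.5 CPM at 2 h, a log2 fold change of 5.69 ± 0.46 (SE; adjusted p = 3.81e-07). The 0 h values rest on 7 and 3 reads, so the size of the fold is imprecise. ZBTB16, a zinc finger repressor of the BTB family, stood at 0.286 and 0.118 CPM at 0 h and 5.91 and 5.39 CPM at 2 h (log2 fold change 4.61 ± 0.46, adjusted p = 3.57e-06), with 4 and 1 reads at 0 h. Both genes were called on these libraries, so the gap between their 0 h and 2 h values adds nothing to the call.

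FKBP5 rose from 31.6 and 33.8 CPM to 120.2 and 85.1 CPM (log2 fold change 1.65 ± 0.21, adjusted p = 4.63e-05). PER1 rose from 124 and 75.8 CPM to 299.8 and 419 CPM (1.84 ± 0.23, adjusted p = 3.42e-05). KLF9, a repressor that curbs growth and is a standard GR target, rose from 52.6 and 36.03 CPM to 188 and 143 CPM (1.89 ± 0.26, adjusted p = 7.43e-05). In all 3 the replicates at 2 h differed visibly, by less than the step from 0 h. CEBPB, a transcription factor of the acute phase, went from 77.7 and 39.9 CPM to 209.8 and 251 CPM (1.96 ± 0.36, adjusted p = 0.00146; 0.0698 without Ctrl 0 h replicate 2). BIRC3, an inhibitor of apoptosis, went from 65.4 and 46.4 CPM to 234 and 221 CPM (2.02 ± 0.46, adjusted p = 0.00854; 0.158 without the same library). Metallothionein genes bind zinc and copper ions, and 2 of the 5 measured members of their list rose. MT2A went from 265 and 95.97 CPM to 607 and 609.6 CPM (1.75) and MT1E from 147 and 55.5 CPM to 432 and 387 CPM (2.00). Members of this family are near-identical and can share reads.

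In a list of 40 textbook GR targets, 35 were measurable, 9 rose, 1 fell and 25 were not called, with a median log2 fold change of 0.57 against -0.01 over all tested genes. Without Ctrl 0 h replicate 2, 6 rose and 0 fell. The uncalled members included 4 of the most used targets. TSC22D3, which encodes the anti-inflammatory protein GILZ, stood at 21.5 and 22.02 CPM at 0 h and 24.9 and 28.8 CPM at 2 h (0.31 ± 0.34, adjusted p = 0.633). SGK1, a kinase that regulates sodium transport, stood at 293 and 275 CPM at 0 h and 249.2 and 280.2 CPM at 2 h (-0.10 ± 0.15, adjusted p = 0.741). DUSP1, a phosphatase that shuts off MAP kinases, stood at 1334 and 1084 CPM at 0 h and 879 and 960.5 CPM at 2 h (-0.39 ± 0.21, adjusted p = 0.264). PDK4, a kinase that blocks glucose oxidation in mitochondria, stood at 0.928 and 1.65 CPM at 0 h and 1.795 and 3.55 CPM at 2 h (1.19 ± 0.47, adjusted p = 0.124). None of the 4 passed the test. The values at 0 h and 2 h overlapped in SGK1 and not in the other 3, against 50.1% of all tested genes without overlap.

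At 1 h the 4 genes stood higher than at 2 h. The values at 1 h were 6.53 and 10.3 CPM for PDK4, 407 and 377 CPM for SGK1, 30.9 and 42.7 CPM for TSC22D3 and 1645 and 1566 CPM for DUSP1. By 3 h PDK4 stood at 1.103 and 1.53 CPM and DUSP1 at 423 and 491 CPM, the latter below every 0 h value. The comparison of 1 h or 3 h with other times was not tested here.

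Other genes with the smallest p among those that rose have more varied roles. ADPRHL1, an ADP-ribosylhydrolase-like protein, rose from 18.9 and 17.8 CPM to 107 and 116 CPM (log2 fold change 2.60 ± 0.22, adjusted p = 4.53e-07). METTL7B, a thiol methyltransferase, rose from 3.29 and 1.18 CPM to 36.96 and 39.9 CPM (4.00 ± 0.35, adjusted p = 6.33e-07). CCND3, the D-type cyclin D3 that drives entry into S phase, rose from 23.997 and 13.7 CPM to 93.3 and 98.6 CPM (2.33 ± 0.24, adjusted p = 3.69e-06). The replicates of these 3 genes lay close together at 2 h. The remaining ones were the polarity gene PRICKLE4 (log2 fold change 2.22), the endosomal GTPase RAB7B (2.78), the long noncoding RNA MYOSLID (1.42), the membrane-shaping adaptor BAIAP2 (1.60), the zinc finger gene CXXC5 (2.18) and VASN (1.97), whose product binds TGF-β. Genes with the largest changes at a mean of 1 CPM or more also included the homeobox genes ONECUT3 (0.643 and 0.589 CPM to 9.29 and 11.1 CPM) and IRX2 (0.143 and 0.118 CPM to 2.32 and 2.34 CPM). The Wnt pathway gene KREMEN2 (2.86 and 0.824 CPM to 21.01 and 25.3 CPM) was another. So were the GMP reductase gene GMPR (0.286 and 0.118 CPM to 2.53 and 3.12 CPM) and the keratin gene KRT6A (0.286 and 0 CPM to 3.06 and 2.98 CPM). Of these, IRX2, GMPR and KRT6A had 3 to 5 reads over both 0 h libraries, and no fold is given for them.

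IP6K3, an inositol hexakisphosphate kinase, rose from 0.786 and 1.18 CPM to 7.29 and 9.86 CPM (log2 fold change 3.18 ± 0.32, adjusted p = 3.57e-06). In the list of inositol phosphate kinases 3 of 11 rose and 0 fell, and 1 of the 3 was called without Ctrl 0 h replicate 2. Its promoter is shown because IP6K3 is one of the genes with the smallest p and its window holds the hexamer AGAACA, which is 1 arm of a glucocorticoid response element. The sequence is the 250 bases before the RefSeq start (GRCh38.p14, chr6:33746906-33747155, minus strand), with the hexamer in capitals at position -105 from the start.
IP6K3: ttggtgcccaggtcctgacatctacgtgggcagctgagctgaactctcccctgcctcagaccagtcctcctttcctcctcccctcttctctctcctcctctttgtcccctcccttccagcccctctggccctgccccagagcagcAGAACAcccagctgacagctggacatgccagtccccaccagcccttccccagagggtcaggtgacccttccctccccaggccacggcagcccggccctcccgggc
The full element, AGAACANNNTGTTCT, was found on either strand in 0 of 18628 RefSeq promoter windows of 300 bases. These windows could be matched by symbol to 13004 of the tested genes. Only exact matches were counted, so this does not show that the promoters lack response elements. According to the paper GR prefers enhancers away from gene starts, and these windows cover only the starts. The hexamer AGAACA was in 7.85% of the windows of rising genes, 12.3% of those of falling genes and 10.5% of all. The AP-1 motif TGANTCA was in 4.93%, 5.95% and 5.73%, and the cAMP response element TGACGTCA in 2.08%, 2.97% and 2.66%. The κB motif GGGNNNNNCC, which is frequent in GC-rich sequence, was in 80.4%, 62.3% and 69.7%. These windows reach 250 bases before and 50 after the start, both strands were read, and a match is not a bound site. The part of base composition in these shares was not tested.

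The immediate early genes, which serum and growth factors switch on within minutes, held more falling genes than any other list examined. Of 32 measured, 11 fell, 2 rose (KLF10 and BHLHE40, with adjusted p = 0.234 and 0.584 without Ctrl 0 h replicate 2) and 19 were not called, with a median log2 fold change of -0.43. EGR1 (ENSG00000120738, chr5:138465479-138469303, plus strand), a zinc finger activator, was highly abundant at 0 h, at 5294 and 5076 CPM, and stood at 716 and 805 CPM at 2 h (log2 fold change -2.77 ± 0.30, adjusted p = 8.44e-06). FOS, a subunit of AP-1, went from 366 and 492.2 CPM to 76.98 and 84.2 CPM (-2.41 ± 0.32, adjusted p = 6.06e-05). ATF3, a stress-induced bZIP factor, went from 345 and 376 CPM to 65.2 and 86.6 CPM (-2.25 ± 0.27, adjusted p = 2.34e-05). All 3 were called on these libraries, and the gap between their 0 h and 2 h values goes with the call. EGR2 went from 274 and 301 CPM to 27.9 and 46.5 CPM (-2.94 ± 0.42), and NR4A2, an orphan nuclear receptor, from 120.3 and 120.2 CPM to 32.4 and 36.8 CPM (-1.79 ± 0.27). EGR4 was lower on far fewer reads (20.4 and 24.8 CPM to 2.53 and 4.896 CPM, adjusted p = 0.0215; 0.128 without Ctrl 0 h replicate 2). MYC, a driver of growth, went from 1259.6 and 1055 CPM to 527 and 791 CPM (-0.81 ± 0.18, adjusted p = 0.00753; 0.142 without Ctrl 2 h replicate 1). In this list 9 genes fell and 0 rose without Ctrl 0 h replicate 2, and 13 fell and 1 rose with the GC trend removed.

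**Figure D3:**
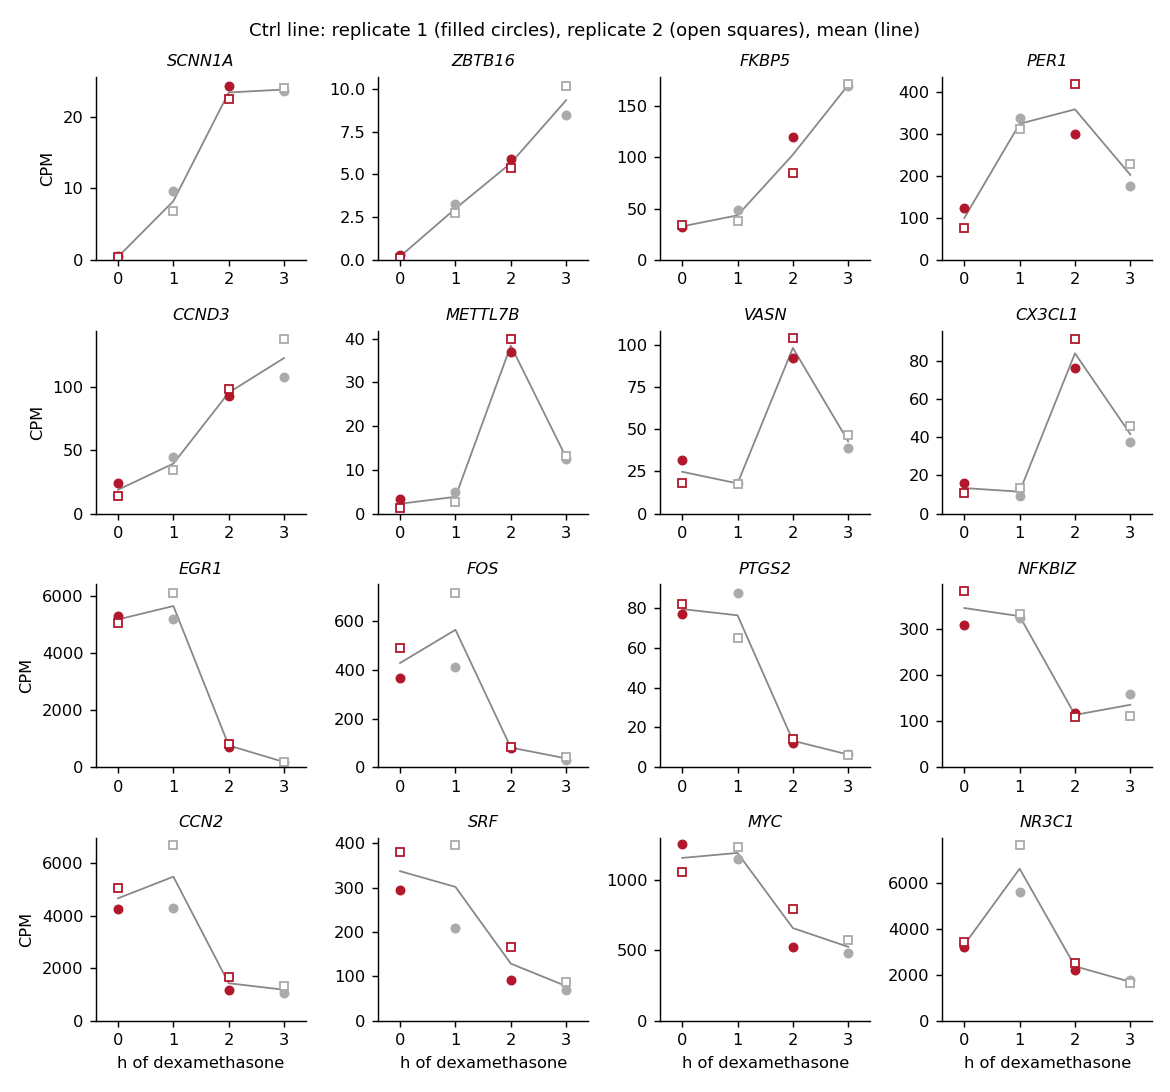
CPM (y axis, from 0) of 16 genes in the 8 Ctrl libraries at 0, 1, 2 and 3 h of dexamethasone (x axis). Circles are replicate 1, squares replicate 2 and lines the mean, with the compared 0 h and 2 h libraries in red. EGR1, FOS and PTGS2 stay near the 0 h level at 1 h and drop by 2 h, while METTL7B, VASN and CX3CL1 are highest at 2 h.

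SRF is the serum response factor, which acts with actin-regulated cofactors on a motif known as the serum response element. Its own gene went from 294 and 380.1 CPM to 92.3 and 165 CPM (-1.38 ± 0.29, adjusted p = 0.00479; 0.0776 without Ctrl 0 h replicate 2 and 0.0996 without Ctrl 2 h replicate 1). The motif, CC followed by 6 bases that are each A or T and then GG, was in 3.35% of the promoter windows of falling genes, 0.695% of those of rising genes and 1.14% of all. That is 18 windows of 17 falling genes, which included EGR1, EGR2, SRF, RND3 and TPM4. The core of the motif is A and T only, and falling genes had a median transcript GC of 42.4% against 57.6% for rising genes. The part of base composition in these shares was not tested. The promoters of EGR1 and SRF are printed because each holds the motif at 2 positions close to the start. Each is the 250 bases before the RefSeq start on the plus strand of GRCh38.p14, with the motif in capitals, at chr5:138465229-138465478 and chr6:43171019-43171268.
EGR1: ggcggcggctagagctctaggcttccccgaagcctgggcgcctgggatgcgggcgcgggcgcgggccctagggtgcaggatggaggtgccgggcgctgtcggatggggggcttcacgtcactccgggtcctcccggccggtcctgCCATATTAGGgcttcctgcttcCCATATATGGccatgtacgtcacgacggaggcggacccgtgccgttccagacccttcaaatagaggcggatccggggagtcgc
SRF: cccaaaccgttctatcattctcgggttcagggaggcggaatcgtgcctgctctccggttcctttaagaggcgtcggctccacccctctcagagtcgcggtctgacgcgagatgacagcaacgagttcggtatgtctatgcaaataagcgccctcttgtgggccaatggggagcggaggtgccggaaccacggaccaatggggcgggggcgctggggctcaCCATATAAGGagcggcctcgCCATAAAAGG
The matches begin at -105 and -83 from the start in EGR1, and at -30 and -10 in SRF.

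Among 28 measured SRF targets and genes of the actin cytoskeleton, 6 fell and 1 rose. TAGLN, which encodes the actin-binding protein transgelin, went from 382 and 625 CPM to 78.9 and 175 CPM (-1.98 ± 0.41, adjusted p = 0.00394; 0.0786 without Ctrl 0 h replicate 2). The tropomyosin genes TPM1 (-1.06, adjusted p = 0.0337) and TPM4 (-0.80, adjusted p = 0.0279) were lower, with adjusted p = 0.478 and 0.419 without that library, and TPM1 was not called with the GC trend removed (adjusted p = 0.0535). The list median was -0.03. Its calls did not hold without Ctrl 0 h replicate 2, nor without Ctrl 2 h replicate 1, with list medians of -0.10 and 0.06.
Of 24 measured YAP targets and Hippo pathway genes, 3 fell and 2 rose, against 2.38% falling and 5.58% rising over all tested genes. Fewer were called without Ctrl 0 h replicate 2, where the list median was -0.08. CCN2, a matrix-associated growth factor, fell from 4253 and 5070.4 CPM to 1185 and 1672 CPM (-1.71 ± 0.27, adjusted p = 0.000375). Its relative CCN1 fell from 6969 and 6520.5 CPM to 3464 and 3696 CPM (-0.91 ± 0.18, adjusted p = 0.00286). CCN1 and CCN2 are standard YAP targets.

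PTGS2 (chr1:186671791-186680922, minus strand), which encodes the inducible cyclooxygenase COX-2, had the smallest p among falling genes. It went from 77.1 and 81.7 CPM to 12.2 and 14.3 CPM, a log2 fold change of -2.57 ± 0.26 (adjusted p = 3.57e-06). NFKBIZ, an atypical IκB that acts as a coactivator of NF-κB, fell from 307 and 382 CPM to 117 and 109.6 CPM (-1.61 ± 0.19, adjusted p = 2.13e-05). The chemokine gene CCL3 went from 16.1 and 49.2 CPM to 1.27 and 3.83 CPM (-3.57 ± 0.62, adjusted p = 0.000924), with the replicates far apart at both times. It shares reads with near-identical copies and is uncertain.
A fixed list of cytokines, chemokines and inflammatory enzymes, which holds neither CCL3 nor CX3CL1, had 18 measured genes, of which 3 fell and 0 rose, with a median log2 fold change of 0.51. In the fit without Ctrl 0 h replicate 1, 4 rose and 2 fell. The 3 that fell were PTGS2, IL18 (log2 fold change -0.68, called in 1 of the 4 fits that left out a library and not with the GC trend removed) and MMP3. MMP3, a matrix protease, went from 17.7 and 8.95 CPM to 3.801 and 3.41 CPM (adjusted p = 0.0149; called in 1 of the 4 fits that left out a library). CX3CL1, a membrane-bound chemokine outside that list, was higher at 2 h, at 15.998 and 10.7 and 76.4 and 91.9 CPM (2.64 ± 0.30, adjusted p = 1.72e-05).
Of 20 NF-κB subunits and feedback inhibitors 7 rose and 1, NFKBIZ, fell, with a median of 0.41. NFKB1, which encodes the p50 precursor, rose from 78.6 and 73.6 CPM to 204 and 234 CPM (1.52 ± 0.24, adjusted p = 0.000398). RELB was higher by 1.03 (adjusted p = 0.046; 0.43 without Ctrl 0 h replicate 2 and 0.290 with the GC trend removed). In this list 1 gene rose without Ctrl 0 h replicate 2 and 3 rose with the GC trend removed.

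Among other falling genes with small p were the activin antagonist FST (124 and 116 CPM to 37.8 and 38.8 CPM, log2 fold change -1.64), the sorting nexin SNX18 (187 and 188 CPM to 57.8 and 75.1 CPM, -1.49), the tetraspanin TSPAN2 (-1.39), MAP3K7CL (-1.37) and the fibrillar collagen COL3A1 (64.5 and 69.8 CPM to 21.6 and 29.02 CPM, -1.40). KRTAP2-3 (-1.72) and RFPL4A (-1.24) also fell, but each has near-identical neighbours that can take its reads. GBP1, an interferon-induced GTPase, was lower, at 16.4 and 38.5 and 2.32 and 6.95 CPM (adjusted p = 0.00354; 0.106 without Ctrl 0 h replicate 2). NPPB, a natriuretic peptide gene, was at 1.57 and 2.83 and 0 and 0.568 CPM (adjusted p = 0.0386; 0.283 without the same library).

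Matrix genes did not move in one direction. Of 26 measured collagens and matrix genes 5 rose and 1, COL3A1, fell, and 0 of the 5 were called without Ctrl 0 h replicate 2. Of 19 genes of the plasminogen system and matrix proteases, 3 fell and 2 rose. Without Ctrl 0 h replicate 1, 6 of them rose, and without Ctrl 0 h replicate 2, 0 rose. ADAMTS1, a secreted protease that cleaves proteoglycans, fell from 75.2 and 108 CPM to 21.8 and 35.3 CPM (-1.66 ± 0.28, adjusted p = 0.000693).
U2OS cells come from bone, and of 12 measured osteoblast genes 1 rose and 2 fell. ALPL, the alkaline phosphatase of mineralising bone, rose from 8.07 and 11.7 CPM to 33.9 and 43.99 CPM (2.01 ± 0.23, adjusted p = 2.13e-05). RUNX2, the master regulator of the osteoblast lineage, fell from 122 and 129.5 CPM to 60.2 and 64.8 CPM (-1.01 ± 0.21, adjusted p = 0.00394). TNFRSF11B, which encodes the osteoclast inhibitor osteoprotegerin, went from 42.3 and 67.4 CPM to 12.1 and 21.4 CPM (adjusted p = 0.0235; 0.248 without Ctrl 0 h replicate 2 and 0.0524 with the GC trend removed).

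Genes of survival and growth were mixed. Of 26 measured apoptosis genes 4 rose and 1 fell, and 1 rose without Ctrl 0 h replicate 2. The proapoptotic BID rose from 4.999 and 4.12 CPM to 14.99 and 11.5 CPM (1.51 ± 0.22), and the antiapoptotic MCL1 fell from 1451 and 1360.1 CPM to 752 and 839 CPM (-0.82 ± 0.16, adjusted p = 0.00249). BCL2L1, which encodes BCL-XL, was higher by 0.87 (adjusted p = 0.0169; 0.377 without Ctrl 0 h replicate 2 and 0.0566 with the GC trend removed). Of 25 p53 targets 4 fell and 0 rose, with PLK2, a stress-induced polo-like kinase, going from 668 and 499 CPM to 259.5 and 252 CPM (-1.19 ± 0.20). In this list 2 genes fell and 4 rose without Ctrl 0 h replicate 1, 2 fell without Ctrl 2 h replicate 1, and 1 fell when either library of replicate 2 was left out. GADD45B, a stress adaptor of MAP kinase signalling, rose from 191 and 148 CPM to 395 and 457 CPM (1.33 ± 0.20). HBEGF, a ligand of the EGF receptor, rose from 123 and 83.1 CPM to 331 and 341 CPM (1.70 ± 0.29, adjusted p = 0.00073).
In the MYC network and ribosome biogenesis 9 of 32 measured genes rose and 1, MYC itself, fell, with a median log2 fold change of 0.43. BOP1, a ribosome assembly factor, rose from 33.1 and 23.9 CPM to 87.1 and 85.9 CPM (1.59 ± 0.20, adjusted p = 4.46e-05). With the GC trend removed 11 rose, and without Ctrl 0 h replicate 2 only 1 did. Of 27 mitosis genes 4 fell and 0 rose. These calls did not hold without Ctrl 0 h replicate 2, nor without Ctrl 2 h replicate 1, with list medians of -0.21 and -0.18. CENPE, a kinetochore motor, gave 93.4 and 179 and 61.2 and 68.5 CPM, with both 2 h values nearer to 0 h replicate 1 (adjusted p = 0.01; 0.371 without Ctrl 0 h replicate 2).
Among metabolic genes, 3 of 26 genes of glucose oxidation and lipid handling rose and 1 fell, against 5.58% rising and 2.38% falling over all tested genes. Of these, 1 in each direction was called without Ctrl 0 h replicate 2. The arrestin-domain genes went apart, ARRDC2 rising from 20.2 and 13.3 CPM to 59.7 and 62.01 CPM (1.84 ± 0.24) and ARRDC3 going from 319.8 and 202 CPM to 119 and 66.2 CPM (-1.50 ± 0.37, adjusted p = 0.0135; called in 2 of the 4 fits that left out a library). Of 28 genes of insulin and FOXO signalling 3 rose and 1 fell, and 0 were called without Ctrl 0 h replicate 2. Among those that rose was FOXO1 (14.998 and 12.1 CPM to 41.2 and 28.1 CPM, adjusted p = 0.00627; 0.12 without Ctrl 0 h replicate 2). No gene was called among 53 cytosolic ribosomal protein genes, 34 replication-dependent histone genes, 13 mitochondrially encoded genes and 17 snoRNA host genes, whose medians were 0.15, 0.45, 0.02 and -0.07. By DESeq2, 3 of these 117 genes were called, and 21 had an unadjusted edgeR p under 0.05. The histone result depended on the libraries and the filter. Without Ctrl 0 h replicate 1, 15 of 34 histone genes and 5 of 53 ribosomal protein genes rose, without Ctrl 2 h replicate 1, 2 histone genes rose, and with no filter on low counts 7 of 44 did. The histone median ran from 0.11 to 0.80 as single libraries were left out.

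**Figure D4:**
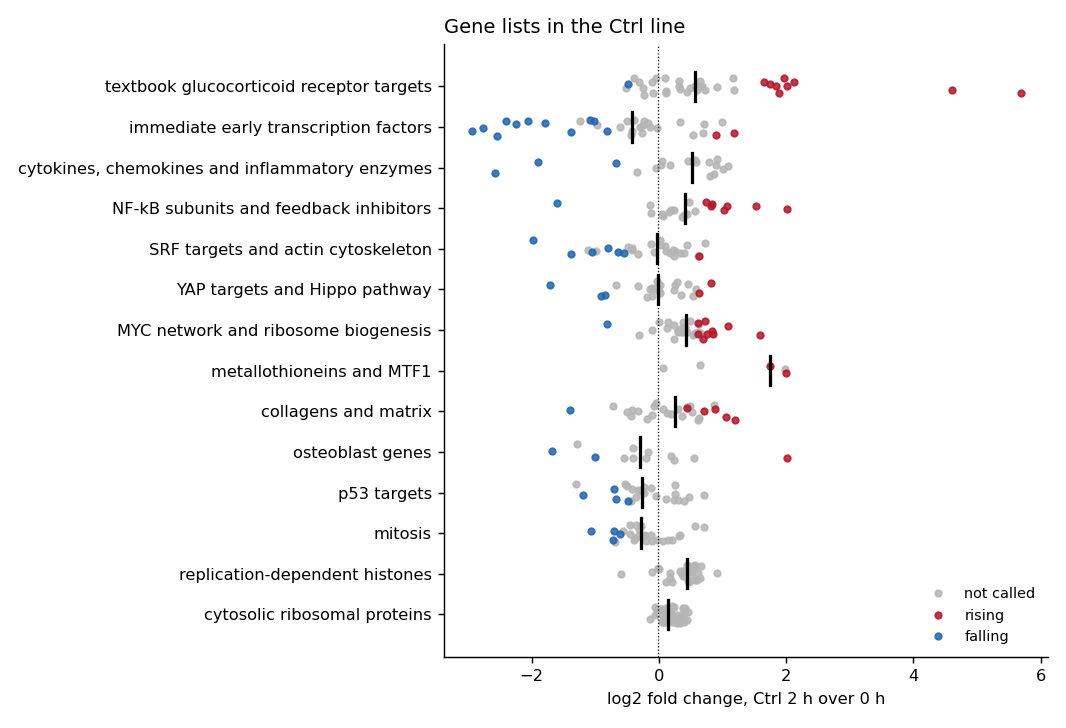
Log2 fold change of Ctrl 2 h over 0 h (x axis) of the measured members of 14 gene lists (rows). Points are genes, red and blue where called, black bars are list medians and the dotted line is the median of all tested genes, -0.01. The immediate early list reaches furthest to the left, and the GR target list furthest to the right.

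The other Ctrl time points place the 2 h values in a course. Of the 1319 rising genes, the mean over replicates was highest at 2 h for 778 (59.0%) and at 3 h for 537 (40.7%), and it was lowest at 1 h for 716 and at 0 h for 593. Over all tested genes 24% were highest at 2 h, but the rising genes were chosen for a high 2 h value. METTL7B at 4.89 and 2.73 CPM at 1 h and 12.4 and 13.2 CPM at 3 h, PRICKLE4 at 11.01 and 12.4 and 20.4 and 22.8 CPM, and VASN at 18.4 and 17.3 and 39.03 and 46.5 CPM were highest at 2 h. ZBTB16, IP6K3, FKBP5 and CCND3 were higher at 3 h, at 8.48 and 10.2, 12.2 and 11.8, 169.9 and 171 and 108 and 139 CPM. Of the 562 falling genes 332 were highest at 0 h and 225 at 1 h. EGR1 stood at 5193 and 6117 CPM at 1 h and 169.9 and 190.2 CPM at 3 h, and PTGS2 at 87.7 and 64.8 and 6.703 and 5.94 CPM.

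The 2 h response of the Ctrl line was set against those of the wt and SoF lines by testing the difference of the 2 log2 fold changes. No gene passed for Ctrl against wt (0 called, 0% of 23651, in edgeR and also in DESeq2; 617 at an unadjusted p under 0.05), and none for Ctrl against SoF (0 called, 0%, in both tools; 303 at an unadjusted p under 0.05). Each line has its own 0 h libraries. Of the 1319 genes that rose in Ctrl, the mean at 2 h was above that at 0 h for 1299 in wt and 1316 in SoF, and of the 562 that fell it was below for 555 and 559. The 0 h replicates of these lines differed by GC in the same sense as in Ctrl, with replicate 1 above replicate 2 in the highest GC bin by a median of 0.26 in wt and 0.35 in SoF. The median SE of the difference was 0.30 for wt and 0.31 for SoF over the called genes, which is the precision of a single gene's difference here.

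The genes with the smallest p in these tests, and some of the GR targets named above, are given as values, with adjusted p = 1.00 for each. SGK1 stood at 218 and 295 CPM at 0 h and 411 and 473 CPM at 2 h in wt, where Ctrl had 293 and 275 and 249.2 and 280.2 CPM (difference of log2 fold changes, Ctrl minus wt, -0.89 ± 0.22). PDK4 stood at 3.096 and 5.81 CPM at 0 h and 49.3 and 54.6 CPM at 2 h in SoF and at 2.43 and 5.69 and 42.7 and 39.2 CPM in wt, and the difference was -2.39 ± 0.60 for Ctrl minus SoF and -2.17 ± 0.59 for Ctrl minus wt. TXNIP, which binds thioredoxin and limits glucose uptake, stood at 20.5 and 16.1 CPM at 0 h and 29.8 and 29.1 CPM at 2 h in Ctrl and at 10.6 and 14.6 and 74.3 and 62.97 CPM in SoF (Ctrl minus SoF, -1.78 ± 0.42). In these 3 genes the 2 h values of Ctrl lay below those of the other lines. TSC22D3 stood at 16.7 and 17.1 CPM at 0 h and 53.6 and 93.6 CPM at 2 h in wt (Ctrl minus wt, -1.81 ± 0.48), and DUSP1 at 986 and 1158 and 1255 and 1509.6 CPM (Ctrl minus wt, -0.76 ± 0.29). ADPRHL1 reached 164 and 152 CPM from 11.4 and 10.9 CPM in SoF (Ctrl minus SoF, -1.23 ± 0.30).
Against wt, 4 further genes had larger log2 fold changes in Ctrl. CX3CL1 went from 26.7 and 19.5 CPM to 56.9 and 33.4 CPM in wt (difference 1.67 ± 0.41), and VWA5B2 from 27.2 and 17.5 CPM to 38.1 and 30.4 CPM in wt and from 7.499 and 7.18 CPM to 29.9 and 44.3 CPM in Ctrl (difference 1.72 ± 0.37). KRT16, a keratin, stood at 4.29 and 2.83 CPM at 0 h and 5.49 and 5.82 CPM at 2 h in Ctrl and 3.51 and 3.62 and 1.47 and 1.301 CPM in wt (difference 1.99 ± 0.43), so its values moved in opposite directions in the 2 lines without passing the test. The antisense RNA SH3PXD2A-AS1 differed by 1.95 ± 0.47. Against SoF the long noncoding RNAs LINC02772 and LINC01152 differed by -5.33 ± 1.36 and -2.05 ± 0.53, with at most 2.36 CPM in any Ctrl library at 0 h or 2 h. SCNN1A, FKBP5 and PER1 had differences of -0.49 ± 0.87, -0.31 ± 0.29 and -0.11 ± 0.31 against wt.

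**Figure D5:**
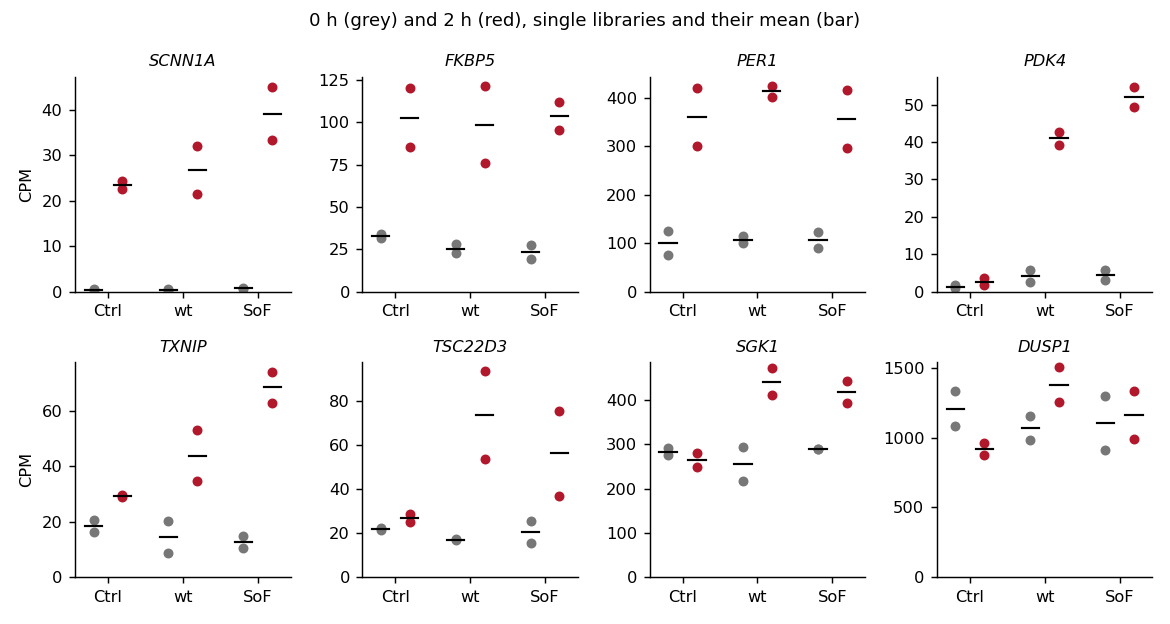
CPM (y axis, from 0) of 8 genes at 0 h (grey) and 2 h (red) in the Ctrl, wt and SoF lines (x axis). Points are single libraries, 2 for each group, and bars their means. SCNN1A, FKBP5 and PER1 are higher at 2 h in every line, while the 2 h points of PDK4, TXNIP and SGK1 in Ctrl lie below those of the other lines, with no difference between lines past the test.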

How the data were processed

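The authors removed duplicate molecules by their identifiers (UMI-tools 1.1.2), trimmed with Trim Galore 0.6.6, aligned with STAR 2.7.3a to hg38 and counted reads over exons of GENCODE 39 with featureCounts. The deposited table holds these deduplicated counts for 61533 genes in 24 libraries, with no normalization. Only the name of the table says that strand was used, and 53.2% of tested genes overlap a gene on the other strand, so reads of overlapping genes may be mixed. Library totals were 8106036 to 15820806 reads.

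Genes passing filterByExpr of edgeR 4.0.16 (minimum count 10, total 15) were scaled by TMM and fitted by the quasi-likelihood test over all 12 groups of line and time, which share 1 estimate of the spread. Ctrl 2 h was set against Ctrl 0 h, and its log2 fold change against those of wt and SoF (interaction). P-values were adjusted by Benjamini-Hochberg over 23651 genes and called under 0.05. CPM use TMM-scaled totals. An SE is the log2 fold change divided by the root of F, and fold changes near 0 reads depend on edgeR's prior count. Symbols, positions and transcript GC came from GENCODE 44. Promoters came from RefSeq GRCh38.p14, and where a gene had several starts each window was counted.

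Named genes were those with the smallest p (12 each way), the largest change (8 each way, at least 1 CPM), up to 4 called and 2 uncalled genes per list, 18 fixed genes and 5 per interaction. NR4A2, TPM1, TPM4 and RELB were named outside this rule after their values were seen. The comparison, the lists and the members were chosen with earlier results of these data known. Alternatives were DESeq2 1.42.0, other scalings, no filter, subsets of libraries, a replicate block, a fold threshold, each library left out and, chosen after seeing the data, removal of the GC trend. The scripts were tested on simulated counts.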

Additional observations from a re-analysis of the deposited data

How the results depend on the processing

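Of 1881 called genes (70.1% rising), the fit of the 4 libraries alone gave 1039 and a log2 fold change of at least 1 left 800. Leaving out 1 library gave 343 to 3305 calls. The lowest count came without Ctrl 0 h replicate 2 and the highest without Ctrl 0 h replicate 1, with 892 without Ctrl 2 h replicate 1 and 637 without Ctrl 2 h replicate 2. DESeq2, other scalings, no filter, the 8 Ctrl libraries alone and the GC trend removed gave 1504 to 2371 calls, and upper-quartile scaling lowered the rising share to 54.9%. Without the filter the difference between lines called 22 genes against wt and 11 against SoF in place of 0 and 0; genes with few reads entered. The other alternatives left both at 0. Replicate numbers are shared between groups, but Ctrl 0 h and Ctrl 2 h replicates did not deviate together (r = -0.08 across genes), so the numbers were not taken as pairs. Over all pairs of groups r ran from -0.22 to 0.57. Between the 0 h groups of different lines it was 0.39 (wt and Ctrl), 0.40 (wt and SoF) and 0.57 (SoF and Ctrl). It was 0.43 between SoF 0 h and SoF 2 h, 0.40 between SoF 2 h and Ctrl 0 h and 0.08 between wt 0 h and wt 2 h. All of these groups enter the differences between lines. With a replicate block 2343 genes were called, with a block per line 2563, and 0 for each difference between lines. Of 78 called genes named in the text, 58 stayed called without Ctrl 0 h replicate 2 and 71 with the GC trend removed, and none changed sign in any alternative. Among uncalled ones, SGK1 came to 0.10 with the GC trend removed and LINC02772, at few reads, ranged from -1.75 to 0.11 as single libraries were left out. The causes were not tested. Depth leaves the folds of SCNN1A and ZBTB16 imprecise, and the 0 h reads of IRX2, GMPR and KRT6A were too few for a fold.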

Other observations

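In several further gene lists rising genes made up a larger share than the 5.58% over all tested genes, from few calls each. These included ion channels and transporters (4 of 21) and BMP and TGF-β feedback (4 of 26). A share above 5.58% therefore does not set a list apart. Among tested protein-coding genes, 1209 of 14693 rose. The 4 lists that follow are examples. Of 16 KLF and SP-like factors 4 rose and 0 fell, and 2 of them were called without Ctrl 0 h replicate 2. Of 21 ZBTB factors 4 rose and 0 fell, of 16 dual-specificity phosphatases, Sproutys and SPREDs 4 rose and 0 fell, and of 24 semaphorins, ephrins and guidance genes 4 rose and 0 fell. Without Ctrl 0 h replicate 2 these lists held 1, 0 and 0 called genes. DUSP9, a phosphatase of ERK, gave 1.86 and 1.30 CPM at 0 h and 4.75 and 6.17 CPM at 2 h (edgeR, adjusted p = 0.010; 0.142 without that library). EFNA1, a membrane-bound ephrin ligand, gave 24.5 and 10.8 CPM against 37.7 and 61.0 CPM (edgeR, adjusted p = 0.0172; 0.314 without that library). Outside these lists, IGFBP4, a binding protein of insulin-like growth factors, rested on 3 and 3 reads at 0 h. Its change is too uncertain to describe.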
